A study of Homo sapiens with 24 samples.

Results

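OS-LM1 cells carrying either of a pair of RNAi constructs against PAX8, shPAX8-1 and shPAX8-2, were compared by RNA sequencing. The members are the 4 libraries labelled OS-LM1-shPAX8-1 and the 4 labelled OS-LM1-shPAX8-2, taken from the labels and by no measured value. They are 8 of the 24 libraries of the series. The others are 4 OS-LM1 libraries with the non-targeting guide RNA sgNTC18 and 12 libraries of 786-M1A cells with the same constructs and guide. OS-LM1 is a metastatic derivative of the clear cell renal cell carcinoma (ccRCC) line OS-RC2, and 786-M1A is a metastatic derivative of 786-O. Both lines are VHL-mutant. The study's hairpin vectors were lentiviral and doxycycline-inducible, and the labels give no time of induction. The cells were grown in RPMI with fetal bovine serum. Both groups shared the targeted gene and differed in the hairpin. A hairpin with an unrelated target, which the study used elsewhere as its RNAi control, was not among these libraries, and sgNTC18 is not a hairpin. The labels do not say that replicates came from separate cultures, so p-values measure the spread between these samples, which may be technical.

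PAX8 is a paired box transcription factor that specifies the renal lineage and stays expressed in ccRCC. A hairpin RNA is processed to a short guide strand, which is loaded into an Argonaute protein and directs cleavage of the fully complementary mRNA. Bases 2 to 8 of a guide, its seed, can also pair with partly complementary sites, mostly in 3′ UTRs, and lower those transcripts as a microRNA does. Separate hairpins against one gene share the target and differ in their seeds, which is why more than one is commonly used.

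The guide strands are shown 5′ to 3′ with the seed in capitals, because matches to it are counted in other transcripts. They are 22 bases long and have the same base at 7 of their 22 positions.
shPAX8-1: tGTGAGTCaatgcttagtcggc
shPAX8-2: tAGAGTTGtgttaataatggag

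The complementary sites in the PAX8 mRNA are shown in the sense direction, with the bases opposite the seed in capitals.
PAX8 site of shPAX8-1: gccgactaagcattGACTCACa
PAX8 site of shPAX8-2: ctccattattaacaCAACTCTa

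The shPAX8-1 site lies in the coding region, in exon 7 of 12, at chr2:113241690-113241711 on the minus strand of GRCh38. The shPAX8-2 site lies in the 3′ UTR, in exon 12 of 12, at chr2:113218122-113218143 on the same strand. Among the canonical transcripts of GENCODE release 44 that could be assigned to a listed gene, PAX8 alone held a full match to either guide. The guides had a GC content of 50% for shPAX8-1 and 31.8% for shPAX8-2.

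The values were estimated read counts per gene from RSEM, shown as CPM, counts scaled to the normalized library size. They do not correct for gene length, so levels are compared between libraries and not between genes. Totals ran from 18182281 to 27042236 with shPAX8-1 and from 14567945 to 52059375 with shPAX8-2. No pair of replicates was as close as sampling noise. The 1st principal component held 45.8% of the variance and separated the constructs, and the 2nd held 16.9% and set replicates 2 and 3 of shPAX8-2 farthest apart. All 14 ccRCC line markers had a mean over 1 CPM. Of the immune markers CD3E, MS4A1, AIF1 and NKG7 were at 0 in all 8 libraries, as were the endothelial markers EMCN, CLDN5 and PLVAP and the erythroid marker HBA1. The summed level of the 14 immune markers was 245 to 356 CPM with shPAX8-1 and 193 to 258 CPM with shPAX8-2, most of it CD68, a lysosomal protein. CD68 was higher with shPAX8-1 (log2 fold change 0.43, edgeR adjusted p = 0.0265, with overlapping libraries), as was CD14, at 3.18 against 1.86 CPM (log2 fold change 0.74), out of 4 immune markers tested. Of 2 erythroid markers tested HBD was lower, at 0.246 against 1.82 CPM (log2 fold change -2.89).

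The targeted gene, PAX8, did not differ detectably between the constructs. PAX8 (chr2:113215997-113278921) measured 83.3, 76.7, 57.7 and 86.8 CPM in the 4 shPAX8-1 libraries and 74.9, 61.4, 93.2 and 76.6 CPM in the 4 shPAX8-2 libraries. The groups overlapped, and their means were 76.1 ± 13.0 and 76.5 ± 13.0 CPM (SD, n = 4 each). The log2 fold change of shPAX8-1 over shPAX8-2 was -0.01, with a 95% interval of -0.31 to 0.29 (edgeR adjusted p = 0.967), and an exact two-sided permutation test over the 70 splits gave p = 1. The smallest p such a test can give is 0.0286. Differences within that interval are not excluded by these libraries. With all 12 OS-LM1 libraries on one scale PAX8 had means of 75.1 and 76.1 CPM with the constructs, and from 246 to 283 CPM in the sgNTC18 libraries. PAX8 protein was not measured here. PAX8-AS1 overlaps PAX8 on the opposite strand, and reads of the 2 genes cannot be told apart where counting ignored strand.

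CCND1, which encodes cyclin D1, was lower with shPAX8-1. It measured 243 to 298 CPM with shPAX8-1 and 365 to 460 CPM with shPAX8-2, without overlap (log2 fold change -0.57 ± 0.10, SE of the fit, edgeR adjusted p = 9.33e-04). MYEOV, its neighbour on chromosome 11, was lower by a log2 fold change of -0.49 (edgeR adjusted p = 0.0182), with overlapping libraries. EPAS1, which encodes HIF2A, measured 174 to 190 and 199 to 246 CPM, and its log2 fold change of -0.25 missed the threshold (edgeR adjusted p = 0.0596). It passed under 5 of 16 alternatives, among them the DESeq2 Wald test (adjusted p = 0.0294) and the fit without replicate 2 of shPAX8-2 (edgeR adjusted p = 0.0343). MYC overlapped between the groups, at 136 to 197 and 171 to 212 CPM (log2 fold change -0.17, edgeR adjusted p = 0.346). In exact permutation tests CCND1 and EPAS1 each reached p = 0.0286, which is 0.0571 after adjustment over a family of 6 genes.

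**Figure D1:**
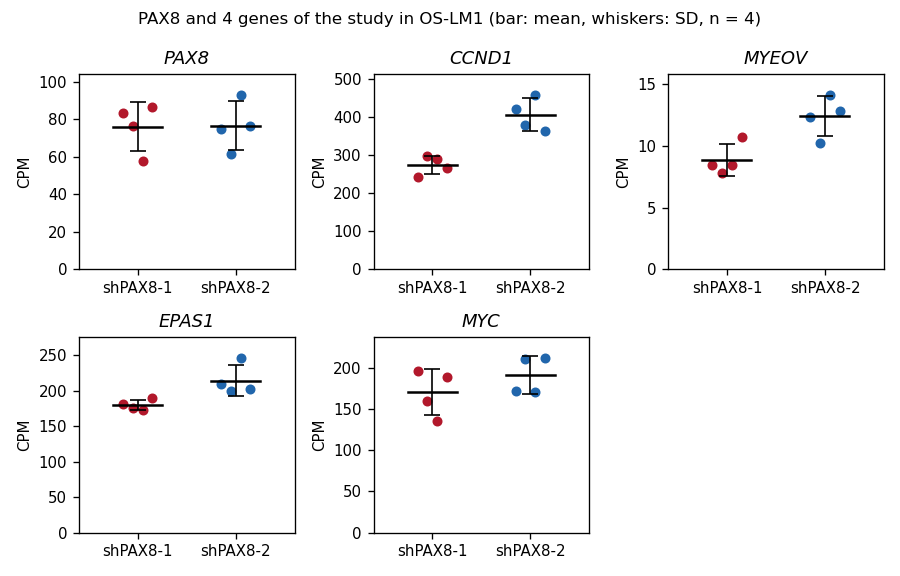
CPM of PAX8, CCND1, MYEOV, EPAS1 and MYC in the 8 OS-LM1 libraries, 1 point per library, with the mean as a bar and the SD as whiskers (n = 4). PAX8 overlapped between the constructs, and CCND1 and EPAS1 were lower in all 4 shPAX8-1 libraries than in any shPAX8-2 library.

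Across the transcriptome, 3586 of 14075 genes tested differed at an adjusted p under 0.05, which is 25.5%. They split almost evenly, with 1832 genes higher with shPAX8-1 (13%) and 1754 lower (12.5%). A larger share of the wide differences was upward. Of 695 genes that passed and differed by more than 1 on the log2 scale, 490 were higher with shPAX8-1 and 205 lower. The libraries of the constructs did not overlap for 3048 of the 3586 genes. A call itself selects for such separation, and the share over all genes tested was not counted. The median log2 fold change over all genes tested was 0.0015. Over 13818 genes, which are not independent replicates, the fold change correlated with transcript GC content at a Spearman rho of -0.21.

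**Figure D2:**
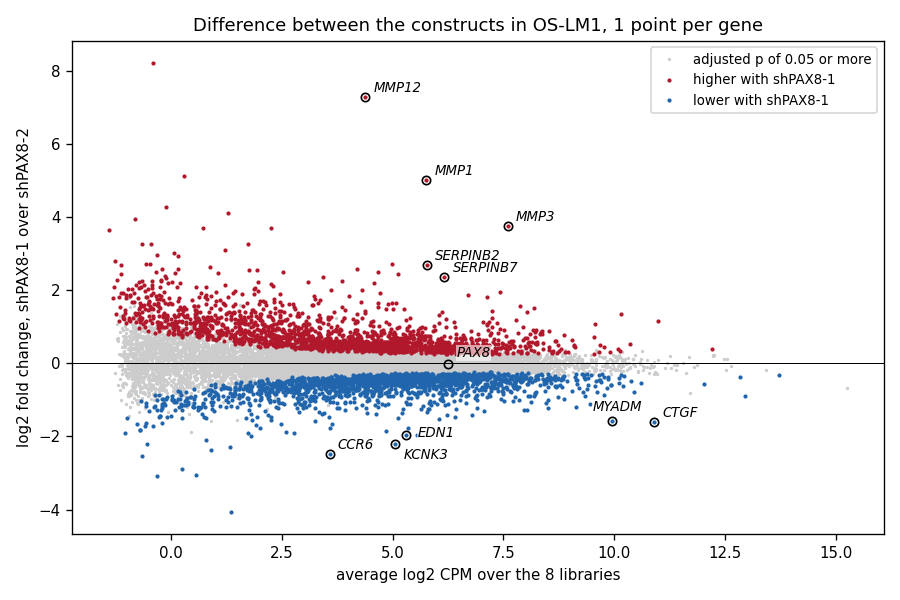
Log2 fold change of shPAX8-1 over shPAX8-2 in OS-LM1 against average log2 CPM, 1 point per gene tested, with the 1832 higher genes in red and the 1754 lower genes in blue. PAX8 lies at a log2 fold change of -0.01, and MMP12, MMP1 and MMP3 at 7.30, 5.02 and 3.75.

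The 3 highest of the leading differences were in matrix metalloproteinases, secreted enzymes that degrade extracellular matrix. MMP12, or macrophage elastase (chr11:102862736-102874982), measured 44.5, 31.3, 46.0 and 42.0 CPM with shPAX8-1 and 0.0688, 0.460, 0.180 and 0.338 CPM with shPAX8-2. Its counts were 605 to 1189 per shPAX8-1 library and 1 to 11 per shPAX8-2 library. The log2 fold change was 7.30 ± 0.25 (SE of the fit, with an edgeR adjusted p = 5.96e-11). MMP1, an interstitial collagenase, measured 87.3 to 134 CPM with shPAX8-1 and 2.89 to 3.68 CPM with shPAX8-2 (log2 fold change 5.02 ± 0.16 SE, edgeR adjusted p = 4.49e-11). MMP3, or stromelysin, measured 361, 385, 347 and 350 CPM against 24.3, 28.7, 25.2 and 29.2 CPM (log2 fold change 3.75 ± 0.10 SE, edgeR adjusted p = 6.36e-12).

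These 3 genes lie beside each other on chromosome 11, and the metalloproteinase genes around them were read as well, a choice made after their values were seen. MMP10, between MMP8 and MMP1, was at 2.35 CPM against 0.0673 CPM (log2 fold change 5.12, edgeR adjusted p = 1.03e-06), from 213 counts over the 4 shPAX8-1 libraries and 7 over the 4 shPAX8-2 libraries. MMP13, on the other side of MMP12, was at 4.15 against 0.480 CPM (log2 fold change 3.11, edgeR adjusted p = 3.64e-07). MMP7, at the other end of the cluster, measured 1.91 ± 0.487 and 1.93 ± 0.551 CPM (SD, n = 4) and did not pass the test (log2 fold change -0.01, edgeR adjusted p = 0.987). MMP20, MMP27 and MMP8 had at most 3 counts summed over a group and were not tested. The 5 metalloproteinase genes from MMP10 to MMP13 were thus higher with shPAX8-1.

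Clade B serpins also differed. They are intracellular protease inhibitors whose genes are clustered on chromosome 18. SERPINB2, the plasminogen activator inhibitor PAI-2, measured 82.3 to 108 CPM with shPAX8-1 and 13.2 to 16.4 CPM with shPAX8-2 (log2 fold change 2.70 ± 0.12 SE, edgeR adjusted p = 1.34e-09). SERPINB7 measured 108 to 130 and 21.3 to 25.8 CPM (log2 fold change 2.36 ± 0.10 SE, edgeR adjusted p = 1.34e-09). SERPINB8, the next serpin gene past SERPINB10, had a smaller fold change, at 80.1 ± 4.82 against 63.8 ± 8.21 CPM (SD, n = 4, log2 fold change 0.33, edgeR adjusted p = 0.0324). SERPINB3 and SERPINB4 passed the test at low levels, but these near-identical paralogues share reads and are uncertain.

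The other leading genes that were higher with shPAX8-1 were ADAM12, ROS1, EMP1, PPP2R2B and LINC01279. ADAM12, a membrane-anchored metalloprotease, measured 30.2 to 32.5 CPM against 4.20 to 5.79 CPM (log2 fold change 2.59). ROS1, a receptor tyrosine kinase, measured 38.6 to 47.0 against 6.76 to 8.69 CPM (log2 fold change 2.50). EMP1, an epithelial membrane protein, measured 55.9 to 60.6 against 9.15 to 12.4 CPM (log2 fold change 2.44). PPP2R2B, a regulatory subunit of protein phosphatase 2A, measured 17.1 to 18.6 against 2.76 to 4.33 CPM (log2 fold change 2.35). LINC01279 is placed by RefSeq within CCDC80, which the files list separately and which also differed, at 273 ± 18.9 against 70.7 ± 2.41 CPM (SD, n = 4, log2 fold change 1.95). How reads were divided between LINC01279 and CCDC80 is uncertain. The libraries of the constructs were separate for each leading gene, as the rule for choosing them required.

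Among the leading genes that were lower with shPAX8-1 were signalling molecules and a potassium channel. CCR6, a chemokine receptor, measured 3.59, 3.26, 3.91 and 3.69 CPM with shPAX8-1 and 20.8, 21.5, 18.4 and 19.6 CPM with shPAX8-2 (log2 fold change -2.47 ± 0.13 SE, edgeR adjusted p = 4.62e-09). KCNK3, a two-pore potassium channel, measured 10.6 to 12.8 and 43.8 to 70.1 CPM (log2 fold change -2.21 ± 0.14 SE, edgeR adjusted p = 7.61e-08). EDN1, the precursor of the vasoconstrictor endothelin-1, measured 15.1 to 17.0 and 57.1 to 64.7 CPM (log2 fold change -1.96 ± 0.10 SE, edgeR adjusted p = 4.62e-09). CTGF, a matricellular protein, measured 809.6 to 1056 and 2641 to 2961 CPM (log2 fold change -1.60 ± 0.10 SE, edgeR adjusted p = 7.48e-08). MYADM, a membrane protein, measured 388 to 597 and 1273 to 1672 CPM (log2 fold change -1.59).

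The remaining lower genes covered inflammation, cell survival and less studied proteins. SAA1, an acute phase apolipoprotein, measured 10.7 to 14.2 and 44.1 to 47.0 CPM (log2 fold change -1.85). Its near-identical neighbour SAA2 moved alike, at 2.81 against 10.4 CPM (log2 fold change -1.90), and reads may be divided between SAA1 and SAA2. BCL2, the antiapoptotic protein, measured 5.15 to 5.72 and 16.4 to 20.2 CPM (log2 fold change -1.77). IFFO2, FAM84B and SERTAD4 had log2 fold changes of -1.96, -1.76 and -1.66.

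**Figure D3:**
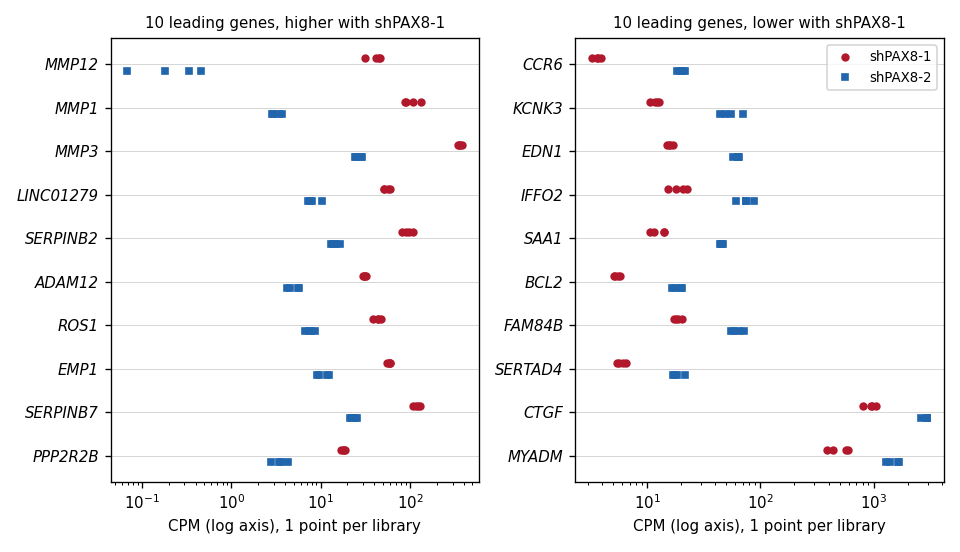
CPM (log axis) of the 10 leading genes higher and the 10 lower with shPAX8-1 in OS-LM1, 1 point per library, with shPAX8-1 as circles and shPAX8-2 as squares. MMP12 spans from 0.0688 to 46.0 CPM, and for each gene the 4 libraries of one construct are separate from those of the other, which the choice of the genes required.

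The sgNTC18 libraries of OS-LM1 give a side view of these levels, on a scale set over all 12 libraries. They are not a matched control for a hairpin, and whether they were made in the same experiment is not stated. MMP3 was at 0.454 to 0.863 CPM with sgNTC18, against means of 356 CPM with shPAX8-1 and 26.7 CPM with shPAX8-2. SERPINB2 was at 0.369 to 0.670 CPM with sgNTC18 and EMP1 at 0.149 to 0.670 CPM, so both constructs lay above sgNTC18 for these genes. Other leading higher genes differed. MMP1 and ROS1 had sgNTC18 means of 2.43 and 5.71 CPM, near the 3.20 and 7.60 CPM of shPAX8-2. ADAM12 and SERPINB7, at 15.8 and 51.6 CPM with sgNTC18, lay between the constructs, with shPAX8-2 lower at 5.03 and 23.3 CPM. Of the leading lower genes, CCR6 was at 2.49 to 3.90 CPM with sgNTC18, against a mean of 3.56 CPM with shPAX8-1. KCNK3 and SAA1 were at 10.3 to 13.9 and 11.3 to 12.8 CPM with sgNTC18, near the levels with shPAX8-1. BCL2 was the other way round, with an sgNTC18 mean of 21.1 ± 2.04 CPM (SD, n = 4), near that of shPAX8-2. CTGF was lowest with sgNTC18, at 44.6 to 60.0 CPM. MMP12, LINC01279 and PPP2R2B were also lowest with sgNTC18, at means of 0.00744, 1.57 and 0.365 CPM. EDN1, FAM84B and SERTAD4, at 20.8, 21.9 and 9.67 CPM with sgNTC18, were nearer to shPAX8-1, and IFFO2, at 51.9 CPM, to shPAX8-2. The sgNTC18 level was therefore near or below shPAX8-2 for most leading higher genes. It was near or below shPAX8-1 for most leading lower genes, BCL2 and IFFO2 excepted. These side values were not tested.

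Genes of DNA replication were lower with shPAX8-1. Of 43 S-phase genes tested, 31 were lower and 1 higher, against 12.5% and 13% of all genes, with a median log2 fold change of -0.54. RRM2, the small subunit of ribonucleotide reductase, measured 113 to 129 CPM with shPAX8-1 and 226 to 275 CPM with shPAX8-2 (log2 fold change -1.02 ± 0.09 SE, edgeR adjusted p = 2.01e-06). CDC6, a factor that licenses replication origins, measured 17.4 to 19.0 and 31.4 to 36.8 CPM (log2 fold change -0.90 ± 0.10 SE, edgeR adjusted p = 1.93e-05). GINS2, of the replicative helicase, and HELLS, a chromatin remodeller, had log2 fold changes of -0.99 and -0.89. MRPL36, the 1 higher member, encodes a mitochondrial ribosomal protein.

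Genes that control entry into S phase were also lower. Of 15 genes of the list of D-type cyclins and partners, 9 were lower and 0 higher in edgeR (median log2 fold change -0.52). The shares of all genes were 12.5% lower and 13% higher. Of the 15 genes 0 were higher at an unadjusted p under 0.05 and 0 in DESeq2. E2F1, the transcription factor released from RB, measured 6.97 to 8.51 and 11.1 to 18.8 CPM (log2 fold change -0.92 ± 0.16 SE, edgeR adjusted p = 6.48e-04). CDK2, CCNE1 and RBL1 had log2 fold changes of -0.61, -0.59 and -0.65. CDK4 and CDK6, the partners of cyclin D1, measured 213 against 216 CPM and 470 against 452 CPM, and neither passed the test. Of 6 CDK inhibitor genes 0 passed in edgeR and 0 in DESeq2, with 1 higher at an unadjusted p under 0.05 (median log2 fold change 0.06). CDKN1A, which encodes p21, had a log2 fold change of 0.01.

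Mitotic genes were lower as well. Of 54 G2/M genes, 23 were lower and 1 higher, against 12.5% and 13% of all genes (median log2 fold change -0.33). The count of 23 was 15 with the replicate block and 36 with the GC trend removed. CDCA3, which promotes mitotic entry, and TMPO, of the nuclear lamina, had log2 fold changes of -0.73 and -0.71, and CDCA8, of the chromosomal passenger complex, -0.62. CDCA2 was the 1 higher member, without overlap between the libraries (log2 fold change 0.63, edgeR adjusted p = 0.00306). In 786-M1A cells the S-phase list also had more lower members than higher, with 21 of 43 lower and 2 higher, against 19.8% and 21.4% of all genes there. The G2/M list did not, with 32 of 54 members higher with shPAX8-1 and 2 lower. That difference between the lines was not tested for the list.

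Interferon-stimulated genes were higher with shPAX8-1. Of 45 tested, 25 were higher and 3 lower, against 13% and 12.5% of all genes (median log2 fold change 0.49). IFIT3, an antiviral effector with tetratricopeptide repeats, measured 33.2, 28.7, 34.3 and 30.1 CPM with shPAX8-1 and 8.12, 9.84, 6.94 and 6.94 CPM with shPAX8-2 (log2 fold change 2.01 ± 0.13 SE, edgeR adjusted p = 9.44e-08). IFIT1, its paralogue, which binds viral RNA, measured 13.5 to 15.8 and 3.55 to 4.97 CPM (log2 fold change 1.76, edgeR adjusted p = 9.74e-07). SAMD9 and SAMD9L, neighbouring antiviral factors on chromosome 7, measured 149 to 183 against 38.6 to 54.0 CPM and 46.3 to 58.1 against 14.1 to 19.0 CPM (log2 fold changes 1.88 and 1.65). MX1, OAS2 and IFIH1, an antiviral GTPase, an oligoadenylate synthetase and a sensor of double-stranded RNA, had log2 fold changes of 1.62, 1.54 and 0.88.

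The list did not move as a whole. The 3 lower members were GBP1, GBP2 and TAP1, a pair of guanylate-binding proteins and a peptide transporter, with log2 fold changes of -0.50, -0.34 and -0.44. STAT2, which carries the signal from the receptor, had a log2 fold change of -0.09 and did not pass (edgeR adjusted p = 0.666). DDX58, which encodes the sensor RIG-I, and EIF2AK2, which encodes the kinase PKR, had log2 fold changes of -0.06 and 0.25, and neither passed. In 786-M1A cells 8 of 44 tested members were higher and 9 lower, against 21.4% and 19.8% of all genes there. IFIT3 and IFIT1 were higher with shPAX8-1 there too (log2 fold changes 1.66 and 1.24), and SAMD9L was lower (log2 fold change -1.12). The difference between the lines passed for SAMD9 and SAMD9L (edgeR interaction, adjusted p = 9.54e-06 and 1.01e-06) and not for IFIT3 (adjusted p = 0.388).

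Genes of the extracellular matrix changed in both directions. Of 27 matrix proteases and inhibitors, 15 were higher with shPAX8-1 and 3 lower (median log2 fold change 0.38), the leading metalloproteinases and serpins included. The shares of all genes were 13% higher and 12.5% lower. Collagens split, with 6 of 19 higher and 6 lower. COL3A1, a fibrillar collagen, was at 13.9 ± 1.99 and 2.97 ± 0.346 CPM (SD, n = 4, log2 fold change 2.23, edgeR adjusted p = 1.38e-07), and COL5A2 was at 350 ± 66.6 and 119 ± 9.45 CPM (SD, n = 4, log2 fold change 1.56). COL18A1 and COL6A2 were lower (log2 fold changes -0.95 and -0.79).

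Fibroblast and pericyte markers moved beside the collagens, with 4 of 8 tested members higher and 1 lower, against 13% and 12.5% of all genes. Their part in the matrix result was not tested. POSTN, or periostin, was at 8.75 against 0.704 CPM (log2 fold change 3.70). The summed level of the 10 markers was 123 to 139 CPM with shPAX8-1 and 109 to 207 CPM with shPAX8-2. COL1A1 made up most of it, at 99.0 ± 9.83 and 161 ± 45.3 CPM (SD, n = 4). The means of PDGFRA, PDGFRB and DCN were below 1 CPM in both groups, and COL1A2 had at most 1 count in any library.

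Integrins and laminins also had members in both directions. Of 23 integrins and laminins, 7 were lower, against 12.5% of all genes, and 3 were higher, at the level of the 13% of all genes. ITGA1, a collagen receptor chain, was at 41.0 ± 2.64 CPM with shPAX8-1 and 109 ± 15.7 CPM with shPAX8-2 (SD, n = 4, log2 fold change -1.41, edgeR adjusted p = 5.20e-07). ITGB3 measured 51.3 to 67.7 and 143 to 177 CPM (log2 fold change -1.40, edgeR adjusted p = 4.95e-07). LAMA4, a laminin chain, was higher, at 401 to 457 against 220 to 240 CPM (log2 fold change 0.89). Of 20 genes of epithelial to mesenchymal transition and cell junctions, 6 were higher and 5 lower. The repressors of epithelial genes SNAI2 and ZEB2 were higher (log2 fold changes 1.00 and 0.60), and the adhesion proteins CDH1 and JUP were lower (log2 fold changes -0.76 and -0.64). Of 10 keratins 5 were lower and 1 higher, KRT18 with a log2 fold change of -0.37.

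Signalling lists were mixed in direction. Targets of YAP and TEAD, the effectors of the Hippo pathway, were lower for 9 of 20 members and higher for 3. The shares of all genes were 12.5% lower and 13% higher. Beside CTGF, CYR61 measured 928 to 1067 and 1682 to 1907 CPM (log2 fold change -0.79, edgeR adjusted p = 2.48e-05), and ANKRD1 was at 7.25 to 8.59 and 18.1 to 20.4 CPM (log2 fold change -1.23, edgeR adjusted p = 2.59e-06). NT5E, the ectonucleotidase CD73, was higher (log2 fold change 1.00). Of 25 genes of TGF-beta signalling and response, 10 were lower and 1 higher. The ligand TGFB2 was lower (log2 fold change -0.79, edgeR adjusted p = 3.76e-05), and the receptor TGFBR2 was the 1 higher member (log2 fold change 0.80, edgeR adjusted p = 1.40e-05).

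The NF-kB list split, with 9 of 33 members higher and 10 lower, against 13% and 12.5% of all genes. IL1B measured 84.7 to 113 CPM with shPAX8-1 and 32.7 to 41.2 CPM with shPAX8-2 (log2 fold change 1.40, edgeR adjusted p = 6.91e-07), and IL1A and CSF2 were higher by log2 fold changes of 1.53 and 1.27. SAA1 and SAA2, of the same list, were lower. Of 29 immediate early and AP-1 genes, 6 were higher and 7 lower. The phosphatases DUSP6 and DUSP4, feedback genes of ERK signalling, were higher (log2 fold changes 1.46 and 1.26), as was PHLDA1 (1.51), while EGR1, an early ERK target, was lower (log2 fold change -1.16). Of 8 EGFR family members and ligands, 4 were lower and 2 higher, with HBEGF at a log2 fold change of -0.75 and NRG1 at 0.75.

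Of 38 ATF4 targets, a list of the amino acid and stress response, 12 were higher and 5 lower (median log2 fold change 0.20). The 5 lower were near the 12.5% of all genes, and 13% of all genes were higher. DDIT3, the transcription factor CHOP, and ASNS, asparagine synthetase, had log2 fold changes of 0.85 and 0.81, and the amino acid transporter SLC7A5 was lower (log2 fold change -0.76). Subunits of oxidative phosphorylation were higher for 12 of 55, against 13% of all genes, and lower for 1, with NDUFB5 at a log2 fold change of 1.00 and SDHD, the lower member, at -0.81. NDUFB3 and NDUFA8 were each highest in 1 shPAX8-1 library. Of 78 cytosolic ribosomal proteins 6 were lower in the main fit, a smaller share than the 12.5% of all genes. The DESeq2 Wald test gave 11 lower, beside 2003 of all 14075 genes, and removal of the GC trend gave 14, beside 2812. Of 32 ribosome biogenesis genes 8 were lower, NOP56 among them (log2 fold change -0.42). In both lists 0 were higher in edgeR, 0 at an unadjusted p under 0.05 and 0 in DESeq2. Without replicate 2 of shPAX8-1, 3 cytosolic ribosomal proteins were higher.

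The genes of the hypoxia pathway, which VHL loss activates in ccRCC, moved both ways. Of 34 HIF targets, 7 were higher and 8 lower (median log2 fold change 0.08). ANGPTL4, a lipase inhibitor, was lower (log2 fold change -0.89), as were CA12, VEGFA and IGFBP3 (log2 fold changes -0.61, -0.53 and -0.57). CITED2, a competitor of HIF for its coactivator, and STC2 were higher (log2 fold changes 0.98 and 0.81). Of 24 glycolysis genes 3 were higher and 4 lower, against 13% and 12.5% of all genes. SLC2A1, the glucose transporter GLUT1, had a log2 fold change of -0.44 and ALDOC of 0.59. Of 9 HIF subunits and oxygen sensors, 2 were higher, VHL and EGLN1, and 1 lower, ARNT2. EGLN1 lost its call under 10 of 16 alternatives. The count of 2 was 1 to 3 with 1 library left out, and 1 with the replicate block or with the GC trend removed.

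Of 16 renal lineage transcription factors 2 were lower, FOXC1 among them, and 0 were higher in edgeR, with 3 higher at an unadjusted p under 0.05 and 0 in DESeq2. The share that was lower, 12.5%, was that of all genes, and with the GC trend removed 4 were lower and 2 higher. Among 14 renal tubule genes, GPX3, a secreted glutathione peroxidase, measured 36.3 to 52.4 CPM with shPAX8-1 and 116 to 133 CPM with shPAX8-2 (log2 fold change -1.47, edgeR adjusted p = 8.65e-07). DAB2, an endocytic adaptor, went the other way (log2 fold change 1.08), as did MME, or neprilysin (log2 fold change 0.67). In all, 3 of these 14 were higher and 4 lower, against 13% and 12.5% of all genes.

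The remaining lists covered lipid, stress and growth pathways. Their counts stand beside 13% of all genes tested that were higher and 12.5% that were lower. The share called in either direction was 27.6% for cholesterol genes, 28% for NRF2 targets and 29.4% for p53 targets. These shares were near the 25.5% of all genes, and that of unfolded protein response genes, 19.2%, was below it. Cholesterol genes were higher for 5 of 29 and lower for 3, with INSIG1 and FDFT1 at log2 fold changes of 0.70 and 0.67 and SREBF1 at -0.83. Fatty acid and lipid droplet genes were higher for 7 of 30 and lower for 6, with G0S2 at 1.18. Unfolded protein response genes were higher for 4 of 26 and lower for 1, and heat shock genes were lower for 4 of 14, HSPA1A and HSPA1B being near-identical paralogues. NRF2 targets were higher for 3 of 25 and lower for 4, p53 targets for 6 and 4 of 34, Wnt genes for 4 and 1 of 16, and genes of the insulin-like growth factor axis for 2 and 3 of 13. Of 4 genes of the metallothionein list tested, 3 were lower.

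Some of these counts rested on single libraries. The 12 higher oxidative phosphorylation subunits were 5 to 7 without replicate 1 or 4 of shPAX8-1 or replicate 1 or 3 of shPAX8-2, and 5 with the replicate block. The 8 lower ribosome biogenesis genes were 3 or 4 without any library but replicate 2 of either construct, 2 with the block and 15 with the GC trend removed. The 6 lower fatty acid and lipid droplet genes were 2 or 3 without replicate 3 or 4 of shPAX8-1 or replicate 1 or 4 of shPAX8-2, and 1 with the block. Cholesterol genes were higher for 3 without replicate 1 of either construct or replicate 3 or 4 of shPAX8-2, and lower for 1 without replicate 1 of shPAX8-1 or replicate 3 of shPAX8-2. The 6 higher p53 targets were 3 without replicate 1 or 2 of shPAX8-1 or replicate 4 of shPAX8-2, and without replicate 2 of shPAX8-2 they were 10, with 7 lower. The 3 higher glycolysis genes were 1 without replicate 1 or 4 of shPAX8-1 or replicate 1 or 3 of shPAX8-2. The 5 lower ATF4 targets were 1 and 2 without replicates 1 and 4 of shPAX8-1, the 5 lower junction genes 3 without replicate 2 of shPAX8-1 or replicate 4 of shPAX8-2, and the 3 lower interferon-stimulated genes 1 without replicate 1 of shPAX8-1. Without replicate 2 of shPAX8-2, 5 integrins and laminins and 5 NRF2 targets were higher.

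**Figure D4:**
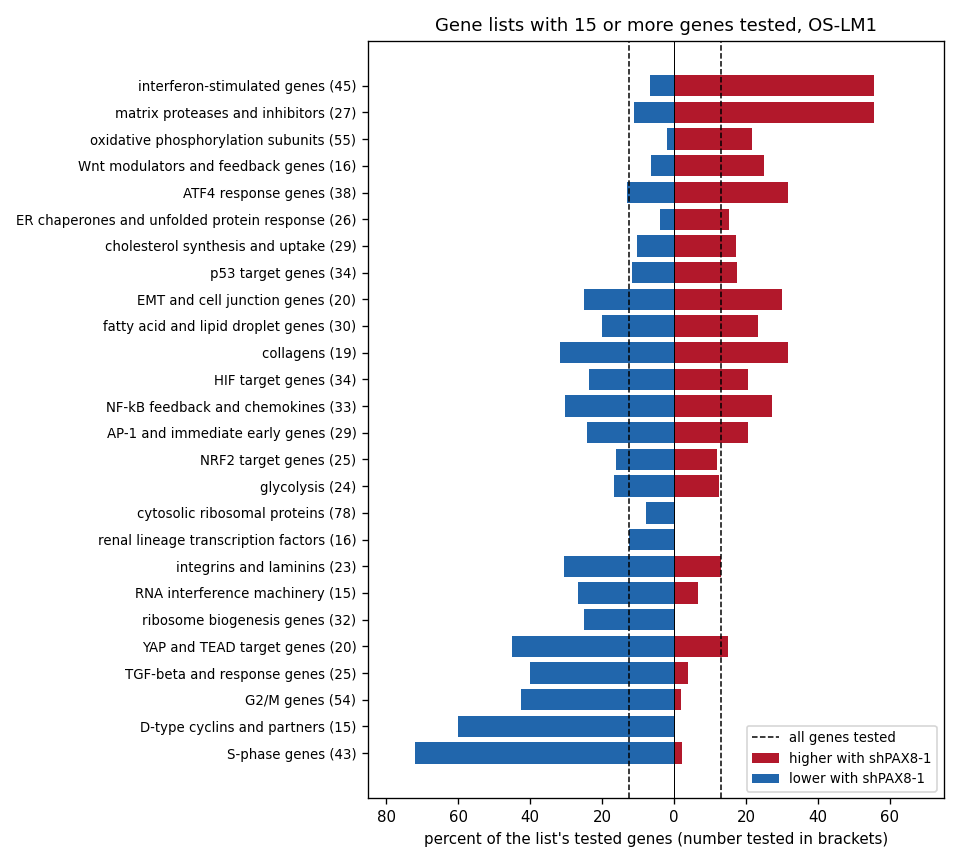
Percent of the tested genes of each list that were higher (red, right) or lower (blue, left) with shPAX8-1 in OS-LM1 at an adjusted p under 0.05, for lists with 15 or more genes tested. The dashed lines are the shares of all genes tested, 13% higher and 12.5% lower, and S-phase genes reach farthest to the left and interferon-stimulated genes and matrix proteases to the right.

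Transcripts of the RNA interference pathway were compared because both constructs use it. Of 15 genes, 4 were lower with shPAX8-1, against 12.5% of all genes, and 1 higher. The count of 4 was 1 without replicate 3 or 4 of shPAX8-1 or replicate 1 of shPAX8-2, 2 without replicate 1 of shPAX8-1, and 1 with the replicate block. AGO1, an Argonaute protein, measured 13.8 to 15.0 and 22.5 to 30.2 CPM (log2 fold change -0.79, edgeR adjusted p = 1.93e-04), and DICER1, which cuts hairpins, 63.7 to 69.8 and 71.1 to 88.8 CPM (log2 fold change -0.32, edgeR adjusted p = 0.0265). AGO2, the Argonaute that cleaves, was at 20.9 and 24.4 CPM and did not pass (log2 fold change -0.23, edgeR adjusted p = 0.187). TNRC6B, a silencing cofactor, was higher (log2 fold change 0.71).

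Genes whose 3′ UTR matches the shPAX8-1 seed were lower with shPAX8-1 more often than other genes. The match, GACTCAC, is the complement of guide bases 2 to 8 and was searched in the sense strand of the annotated 3′ UTR. It shares 6 of its letters with TGACTCA, the AP-1 binding motif of DNA. It was present in 933 of 12642 genes tested that had a 3′ UTR, which is 7.38%. Of those 933 genes, 249 were lower with shPAX8-1, which is 26.7%, and 85 were higher, which is 9.11%. Among all 12642 genes, 13.5% were lower and 12% higher. The median log2 fold change was -0.13 with a match and -0.01 without. With the longer match that adds an A opposite guide base 1, 29.3% of 307 genes were lower and the median was -0.18. With 2 or more matches, 31.1% of 74 genes were lower and the median was -0.20. With 2 or more of the longer match, 2 of 20 genes were lower, which is 10%.

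The match to the shPAX8-2 seed, CAACTCT, had a smaller shift in the opposite direction. It was present in 1433 genes, which is 11.3%, and 223 of them were higher with shPAX8-1, which is 15.6% against 12% of all. The share that was lower, 13.6%, was at the level of all genes. The median log2 fold change was 0.01, and 0.05 over the 302 genes with the longer match, of which 17.9% were higher. Genes with a match had longer 3′ UTRs, with a median of 3103 bases for shPAX8-1 and 3352 for shPAX8-2 against 1346.5 over all. The part of UTR length in these shares was not tested. Matches to the seed of a further guide of the study that these libraries did not carry, shPAX8-3 (TAAATGA), lay in 3′ UTRs with a median of 3035 bases. Of those genes 12.8% were lower and 13.7% higher, with a median log2 fold change of 0.02.

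**Figure D5:**
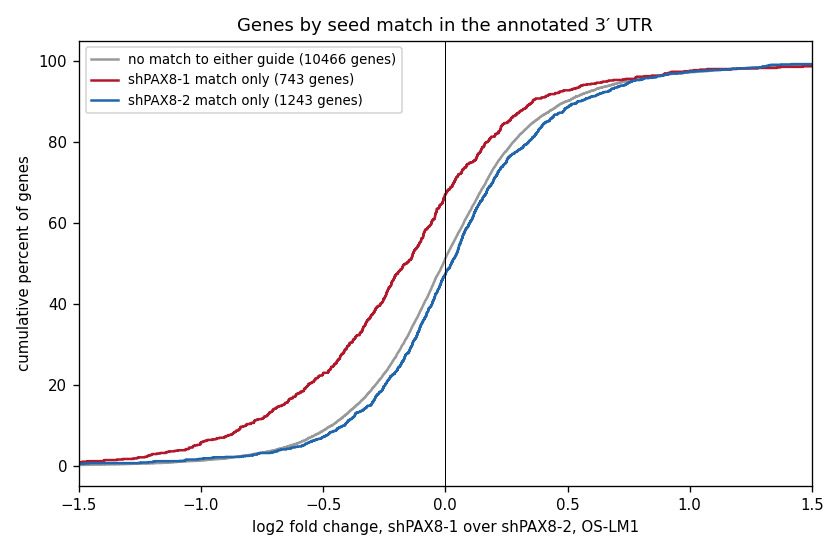
Cumulative percent of genes against the log2 fold change of shPAX8-1 over shPAX8-2 in OS-LM1, for 10466 genes with no seed match in the 3′ UTR, 743 with a shPAX8-1 match only and 1243 with a shPAX8-2 match only. The curve of shPAX8-1 matches lies to the left, with a median of -0.16, and that of shPAX8-2 matches slightly to the right, with a median of 0.03.

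In the 786-M1A libraries genes with the same shPAX8-1 match were also lower more often than all genes. Of 933 tested genes with the match, 31.2% were lower with shPAX8-1 and 15.6% higher, against 20.4% and 22.7% of all 12514 genes, and the median log2 fold change was -0.18. With the longer match 28.2% of 308 genes were lower there. For the shPAX8-2 match 30.9% of 1409 genes were higher, with a median of 0.14, and of genes with a match to the absent guide shPAX8-3 32.7% were higher. The median 3′ UTR GC content of these sets was 40.4% and 37.5%, against 42.1% over all genes and 43.4% with the shPAX8-1 match. Their median transcript GC content was 44.2% and 42.2%, against 48.1% over all genes and 47.6% with the shPAX8-1 match. In 786-M1A the Spearman rho between fold change and transcript GC content over genes was -0.57. After a GC correction of the libraries, 26.5% of genes with the shPAX8-2 match were higher in 786-M1A against 24.7% of all, while 40% of genes with the shPAX8-1 match were lower against 21.7% of all. In OS-LM1 the same correction gave 39.9% lower for the shPAX8-1 match against 21.6% of all.

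Leading genes of both directions held a match. Of the 10 leading lower genes 3 held the shPAX8-1 match in the 3′ UTR, and of the 10 leading higher genes 2 held it, against 7.38% of all genes tested. The shPAX8-2 match lay in 2 leading higher genes, MMP1 and PPP2R2B, and 2 leading lower genes, FAM84B and SERTAD4, against 11.3% of all. Among the leading higher genes LINC01279 was read with the CCDC80 transcript. The 22 bases opposite the guide are shown, with the match in capitals, for lower genes with a match and for a higher one.
KCNK3 site 1: aacagaagacttcaGACTCACc
KCNK3 site 2: gcttagttgccattGACTCACc
BCL2: gactctttgcatatGACTCACa
MYADM: tcctgcttgtctggGACTCACa
EMP1 site 1: tattttaaggaattGACTCACa

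On GRCh38 the KCNK3 sites lie at chr2:26729330-26729351 and chr2:26732638-26732659 on the plus strand, and the BCL2 site at chr18:63128029-63128050 on the minus strand. The MYADM site shown lies at chr19:53876229-53876250 and that shown of EMP1 at chr12:13217839-13217860, both on the plus strand. The 2nd KCNK3 site matched 8 of the other 14 bases opposite the guide, and the BCL2 site 4. KCNK3, BCL2 and MYADM were lower with shPAX8-1 by log2 fold changes of -2.21, -1.77 and -1.59, and EMP1, which held 2 matches, was higher by 2.44. In 786-M1A KCNK3 and MYADM were also lower (log2 fold changes -2.41 and -1.65), whereas BCL2 had a log2 fold change of 0.53 (edgeR adjusted p = 0.16). With sgNTC18 in OS-LM1 KCNK3 was near the shPAX8-1 level, and MYADM, at 912 ± 108 CPM (SD, n = 4), lay between the constructs.

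Longer complementarity outside PAX8 was found in 14 listed genes. Of those tested, STX3, GCLC and FCHO2 passed, a share near the 25.5% of all genes tested. A run of at least 12 bases that included the seed match was found for shPAX8-1 in C10orf12, LCOR, CREB5, GNPNAT1, RRAGD and STX3. C10orf12 and LCOR, which share a 14-base run, are 1 locus in RefSeq, so their counts are uncertain. These runs lie outside the 3′ UTR except that of GNPNAT1. Of these genes STX3, a syntaxin of vesicle fusion, was lower with shPAX8-1, at 50.9 to 59.2 CPM against 69.7 to 73.9 CPM (log2 fold change -0.43 ± 0.09 SE, edgeR adjusted p = 0.00291). C10orf12 had a log2 fold change of -0.36 and missed the threshold (edgeR adjusted p = 0.0585), as did GNPNAT1 at -0.27 (edgeR adjusted p = 0.0912). Both passed with the GC trend removed. LCOR, CREB5 and RRAGD had log2 fold changes of 0.09, 0.14 and -0.23 and did not pass. In 786-M1A STX3 had the opposite sign (log2 fold change 0.36), and the difference between the lines passed (edgeR interaction, adjusted p = 8.55e-04).

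For shPAX8-2 the runs were in MICU2 and ZKSCAN2 (14 bases each), in CEACAM8 and TTN (13) and in BAAT, FCHO2, GCLC and OR8J3 (12). CEACAM8 and OR8J3 were too low to test. A lower level with shPAX8-2 is a positive fold change here. GCLC, the catalytic subunit of glutamate-cysteine ligase, measured 60.8 to 79.7 CPM with shPAX8-1 and 33.7 to 40.7 CPM with shPAX8-2 (log2 fold change 0.97 ± 0.11 SE, edgeR adjusted p = 2.48e-05). FCHO2, a protein of clathrin pits, measured 32.0 to 34.9 and 24.9 to 28.0 CPM (log2 fold change 0.36 ± 0.10 SE, edgeR adjusted p = 0.0132). With the GC trend removed FCHO2 did not pass (log2 fold change 0.21, edgeR adjusted p = 0.109). The runs in GCLC and FCHO2 lie in the 3′ UTR. Both were higher with shPAX8-1 in 786-M1A as well (log2 fold changes 0.86 and 0.46). ZKSCAN2, with a longer run in its 3′ UTR, was at -0.26 and did not pass (edgeR adjusted p = 0.109), and MICU2 was at 0.05. With the GC trend removed ZKSCAN2 passed as higher with shPAX8-2 (log2 fold change -0.33, edgeR adjusted p = 0.0152). BAAT and TTN had log2 fold changes of -0.79 and -0.17 and did not pass. With sgNTC18 GCLC was at 13.6 CPM and FCHO2 at 19.0 CPM, below both constructs.

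The same constructs in 786-M1A differed in PAX8 itself. PAX8 was at 19.3 ± 4.37 CPM with shPAX8-1 and 43.4 ± 2.36 CPM with shPAX8-2 (SD, n = 4 each), a log2 fold change of -1.18 (edgeR adjusted p = 5.53e-04). The difference between the lines was 1.16 on the log2 scale (edgeR interaction, adjusted p = 0.00152). In 786-M1A 5772 of 14013 genes differed between the constructs, which is 41.2%. Of 12943 genes tested in both lines, 3222 passed in OS-LM1 and 5505 in 786-M1A. They shared 1328 genes with the same direction, 628 higher and 700 lower, and 295 with opposite directions. The shared genes are 41.2% of the OS-LM1 calls and 24.1% of those in 786-M1A. Across the interaction fit 3453 of 15101 genes, or 22.9%, differed between the lines.

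The leading genes differed in how the lines compared. SERPINB7, KCNK3 and MYADM had log2 fold changes of 2.04, -2.41 and -1.65 in 786-M1A, and the difference from OS-LM1 did not pass (edgeR interaction, adjusted p = 0.417, 0.647 and 0.904). With the GC trend removed the SERPINB7 difference passed (0.51 on the log2 scale, edgeR interaction, adjusted p = 0.0196). EDN1 and MMP1 moved the same way by less, at -1.12 and 1.45 in 786-M1A, and their difference between the lines passed (edgeR interaction, adjusted p = 0.0017 and 9.91e-08). CTGF and FAM84B were higher with shPAX8-1 in 786-M1A (log2 fold changes 0.59 and 0.70) and lower in OS-LM1, with a difference that passed (edgeR interaction, adjusted p = 1.97e-07 and 7.64e-07). MMP12 had 0 counts in all 8 shPAX8 libraries of 786-M1A, so no fold is given, and MMP3 had 47 and 21 counts there in all. In 786-M1A the constructs also differed in PAX8 mRNA, so hairpin and PAX8 level cannot be told apart there.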

How the data were processed

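RNA-seq libraries of OS-LM1 and 786-M1A cells were analysed, 8 of them for the main comparison. The labels name a stranded poly(A) kit (KAPA) and the paper's methods Lexogen kits. Per the submitters' notes reads were mapped to hg38 (GRCh38) with RSEM and Bowtie2. The annotation, tool versions and strand setting are not given in the sources used here. The authors deposited expected counts from RSEM, not normalized, for 26475 genes. RSEM shares multi-mapping reads between paralogues. Groups were taken from the labels.

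These values were rounded to whole numbers. The analysis used edgeR 4.0.16 under R 4.3.3, with filterByExpr, TMM scaling, a robust quasi-likelihood fit and a prior count of 2. P-values were adjusted by Benjamini-Hochberg over all genes tested, with a threshold of 0.05. The scripts were tested on simulated data in which 200 genes changed. The labels do not say what a replicate number shares, and deviations of same-numbered libraries had correlations from -0.25 to 0.16. The difference between lines is the interaction of line and construct over 16 libraries. DESeq2 1.42.0, the tool of the study, and the other alternatives are given in the closing section. Genes were named by rule: PAX8, MYC, CCND1, MYEOV and EPAS1, the 10 largest differences each way at an average log2 CPM of at least 3 without overlap, up to 4 per list at that level, and genes with a complementary run of at least 12 bases. Some items that the rule names are not reported here. Others were chosen after their values were seen. The comparison, gene lists and rules were chosen with earlier results of these data known. Lists were written by hand and described by counts, without a set test. Gene positions are from RefSeq (GRCh38.p14), 3′ UTRs from canonical GENCODE release 44 transcripts, and guide sequences from the study's supplement. Of the 12642 genes with a 3′ UTR, 26 shared their transcript with another listed gene. Intervals cover counting error or the spread between these samples only.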

Additional observations from a re-analysis of the deposited data

Results flagged for a closer look

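In 15 of 318 groups of 4 libraries, 1 library lay far from the other 3 by Dixon's criterion at the 95% level, where chance gives about 1 in 20, or 15.9. With shPAX8-1 these were, in CPM, COL5A2 at 449.9, NDUFB3 at 65.8 and NDUFA8 at 71.5 in replicate 3, AGO4 at 14.2, CDH1 at 8.44 and COL6A2 at 94.1 in replicate 2, and DICER1 at 69.8 in replicate 1. With shPAX8-2 they were CTGF at 2641 and SLC2A1 at 1056 in replicate 3, ALDOC at 24.7 and GCLC at 40.7 in replicate 2, TNRC6B at 26.4, COL3A1 at 2.46 and IRS2 at 279 in replicate 4, and AGO4 at 17.8 in replicate 1.

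The construct contrast differed between the lines for PAX8 and 13 leading genes, 14 of 21 tested (edgeR interaction, Benjamini-Hochberg adjusted over all genes). The differences, OS-LM1 minus 786-M1A on the log2 scale, were positive for PAX8 at 1.16, MMP1 at 3.56, MMP3 at 2.84, LINC01279 at 3.12, ADAM12 at 2.01 and EMP1 at 1.38. They were negative for CCR6 at -2.15, EDN1 at -0.85, IFFO2 at -0.91, SAA1 at -1.03, BCL2 at -2.30, FAM84B at -2.47, SERTAD4 at -1.57 and CTGF at -2.20. The adjusted p ranged from 9.91e-08 for MMP1 to 0.00898 for EMP1. MMP12, MMP3, ROS1 and PPP2R2B were too low for a test within 786-M1A and entered the fit through their OS-LM1 levels. The MMP3 difference rests on 47 counts with shPAX8-1 and 21 with shPAX8-2 in 786-M1A. For MMP12, ROS1 and PPP2R2B the fit cannot decide, because their counts there were as low or lower.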

How the results depend on the processing

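The count of 3586 genes was 3601 with DESeq2 size factors, 3924 with the DESeq2 Wald test and 2709 to 4276 with 1 library left out, and no gene called in both had the opposite direction. The replicate block gave 2418 genes, 1285 higher and 1133 lower. Deviations of same-numbered libraries had correlations from -0.25 to 0.16, and those of differently numbered ones from -0.14 to 0.22. So few libraries cannot decide whether a number marks a shared culture or batch. Removing the GC trend gave 4900 genes, of which 2812 were lower, and 42.6% of the calls were then higher against 51.1% before. With all 12 OS-LM1 libraries in the fit 42.5% of 4378 calls were higher. An adjusted p under 0.01 left 2042 genes (1079 higher, 963 lower), and a log2 fold change over 0.58 left 1838 (1072 higher, 766 lower). The PAX8 log2 fold change, which passed under no alternative run, ranged from -0.10 to 0.10 with 1 library left out and was 0.042 with the GC trend removed, 0.032 with the replicate block added to that, and 0.018 in thinned libraries. Also uncalled, LCOR ranged from -0.018 to 0.21 with 1 library left out and MICU2 from -0.070 to 0.18, and MICU2 was -0.060 with the GC trend removed, -0.064 with the block added and -0.012 when thinned. Genes with the shPAX8-1 match were lower in 39.9% with the GC trend removed. For the shPAX8-2 match 23% were then lower, against 21.6% of all genes, and 17.9% were higher with the 8-base match, against 12% of all. Of 148 named genes called besides PAX8, 15 lost the call under some alternative, MYEOV, DICER1, EGLN1 and FCHO2 among them, and 0 changed sign. EPAS1, C10orf12, GNPNAT1 and ZKSCAN2 gained a call under 5, 5, 4 and 3 of 16 alternatives. The GC correction of the 786-M1A libraries was chosen after seeing the data. Where not stated, the cause was not tested. Depth limits genes of few counts, such as MMP12 and MMP10 with shPAX8-2.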
